A study of Mus musculus with 4 samples.

Results

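The 64 genes described here are named for subunits and assembly factors of respiratory complexes II to V and the electron carrier cytochrome c. They were chosen by name from the 32151 named genes of an RNA-seq table of whole mouse kidney. Names of complex II subunits (Sdha to Sdhd), of complex II assembly factors (Sdhaf and a digit), names starting with Uqcr or Atp5, and Cox names built on a number were taken, together with Cyc1, Cycs, Sco1, Sco2 and Surf1. A further 7 rows with such names are marked as pseudogenes by the suffix -ps and were left out. Cox6c2 and Cox20b, which lack the suffix but are processed pseudogenes by gene type, stayed among the 64. Autosomal dominant polycystic kidney disease (ADPKD) is inherited and turns parts of the tubules into growing cysts, most often through mutation of Pkd1, the gene of polycystin-1. There were 2 ADPKD libraries, of genotype Pkd1fl/fl; Cre/Esr1+, and 2 wild-type (WT) libraries. Tamoxifen (10 mg/kg at P10, postnatal day 10) is in the labels of all 4 samples, WT included, and is the injection that starts Cre recombination and the early-onset disease. The housing text of the WT labels names the same floxed, Cre-carrying mice, while their genotype field reads wildtype, so it is not settled whether the WT mice were injected or carried any of these alleles. Neither the promoter of the Cre transgene nor the age at collection is given in the sources used here. Whether each library is a separate animal is not stated, although the 2 ADPKD libraries differ in sex by the genes given below. The p-values therefore measure only the spread between these samples. In WT its source, technical or between animals, is not stated, and some markers given below differed widely between the 2 WT libraries. In ADPKD the spread includes a difference of sex.

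Complex II (succinate dehydrogenase) oxidizes succinate and reduces ubiquinone, and complex III passes electrons from ubiquinol to cytochrome c. Complex IV (cytochrome c oxidase) hands those electrons to oxygen, and complex V (ATP synthase) uses the proton gradient built by the chain to make ATP. Kidney tubules, the proximal tubule above all, reabsorb solutes with ATP from mitochondria and are dense in these complexes. All subunits of complex II are encoded in the nucleus, whereas complexes III, IV and V also hold subunits encoded by mitochondrial DNA, whose genes are not analysed here.

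Libraries held between 18001308 and 19955120 reads assigned to genes, and all levels below are FPKM, reads scaled to exon length and to the assigned reads of the library. The 64 genes took 2.24% and 2.31% of the assigned reads in WT replicates 1 and 2, and 1.20% and 1.23% in ADPKD replicates 1 and 2. Wilson 95% intervals, which cover counting error only, were 2.23% to 2.24% and 2.30% to 2.31% in WT and 1.195% to 1.205% and 1.228% to 1.238% in ADPKD. Pkd1 itself stood at 1.97 and 2.12 FPKM in WT and 2.48 and 2.08 FPKM in ADPKD, which does not separate the groups. Xist, the RNA of the inactive X chromosome, was at 29.6 FPKM in ADPKD replicate 2. The other 3 libraries had at most 0.0217 FPKM. Ddx3y, a gene of the Y chromosome, was at 11.5 and 8.46 FPKM in WT and 15.1 and 0.0482 FPKM in ADPKD. By these 2 genes ADPKD replicate 2 is female and the others are male, so sex is unbalanced between the groups. Its part in the values below was not tested. A cluster of 7 mitochondrial-like pseudogenes on chromosome 1 took 9.48% and 6.11% of the reads in WT and 3.85% and 3.49% in ADPKD, and rescaling to the reads outside it is among the alternatives in the closing section.

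Messages for the subunits of complexes II to V were lower in ADPKD kidney, at a median of 51.2% of the WT level over the structural subunits. The 15 tested assembly factors among the members, of complexes II and IV, were at a median of 73.5%. None of these 15 was called, where 4.78% of all genes tested were called lower. Of 26 tested genes listed as other assembly factors, 5 were called lower. Each gene was compared by limma on log2(FPKM + 1), over the 17001 genes with a mean of at least 0.5 FPKM, with Benjamini-Hochberg adjustment, and was called at an adjusted p below 0.05. Of the 63 members tested, 33 fell, 0 rose and 30 were not called. Over all genes tested 14.2% were called, 4.78% as lower and 9.43% as higher. The median log2 fold change (ADPKD minus WT) was -0.88 over the members and 0.18 over all genes tested, a difference of -1.06. Scaling that moved the median of all genes to 0.01 (median of ratios) or -0.01 (quantile) gave a difference of -1.11 or -0.86, and under these scalings the calls over all genes split into 878 lower and 740 higher, or 1102 lower and 999 higher, against 813 and 1604 here. Both ADPKD libraries lay below both WT libraries for 57 of the 63 members, against 21.0% of all genes tested. None of the 63 was higher at an unadjusted p below 0.05 either, and the count of rises was also 0 with voom on the reads recovered from FPKM.

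The calls lay close to the threshold, with adjusted p between 0.0164 and 0.0498, and they rest on all 4 libraries. Leaving out any 1 library ended nearly all of them and also cut the calls over all genes. The median log2 fold change of the members stayed between -0.90 and -0.86. In whole kidney, fewer cells of a type and less RNA per cell cannot be told apart.

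**Figure D1:**
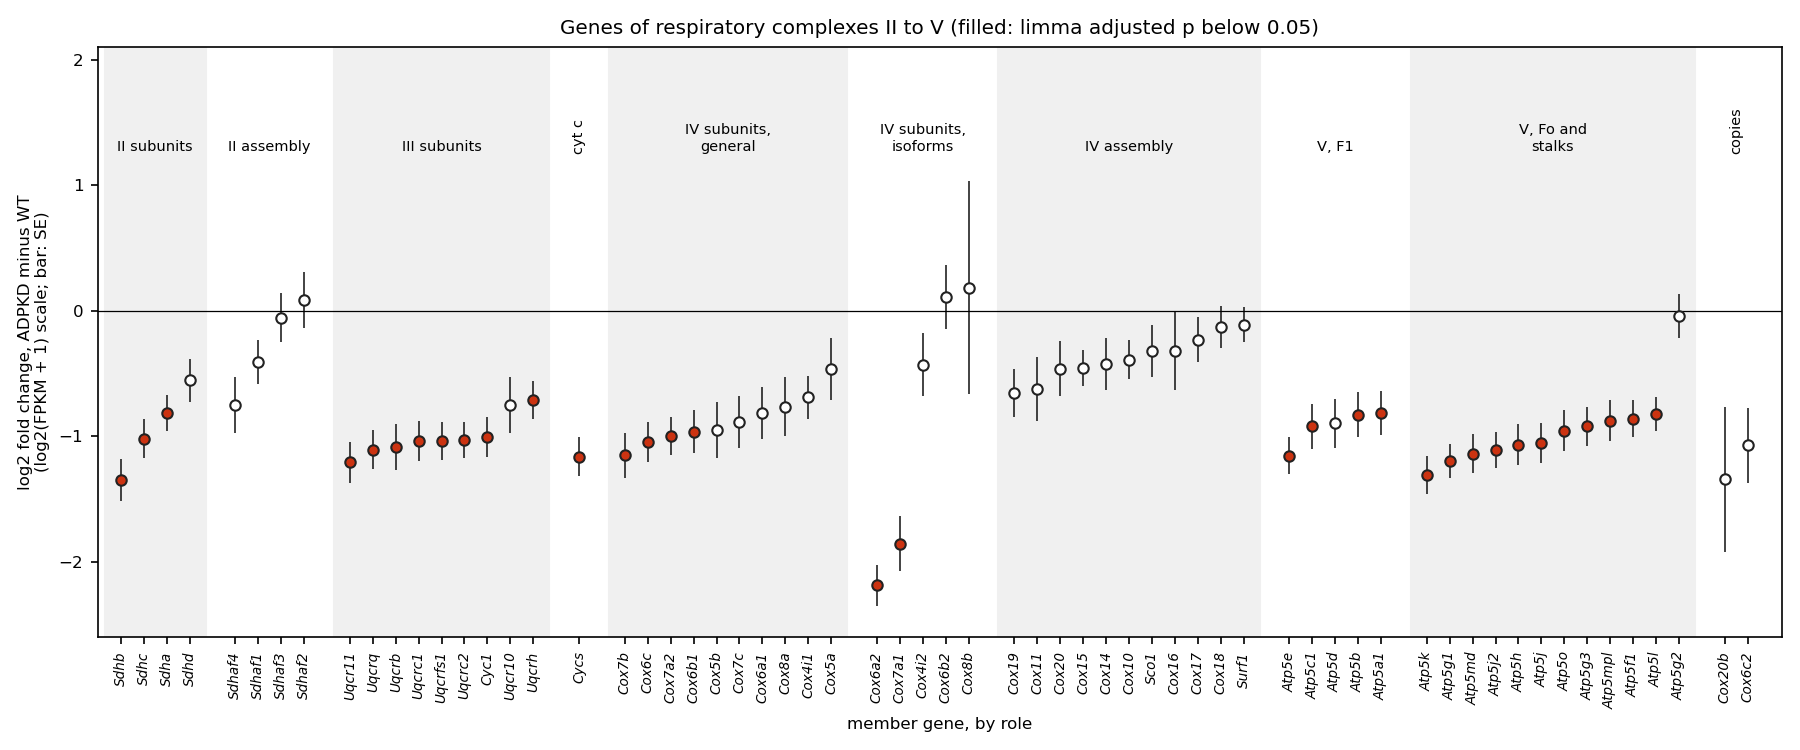
Log2 fold change (ADPKD minus WT, on the log2(FPKM + 1) scale) of the 63 tested members, ordered within groups by role, with bars for the SE. Filled points passed limma at an adjusted p below 0.05: these are 33 members, all below 0, and none of them is an assembly factor.

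Of the 40 structural subunits, leaving out tissue isoforms, 30 fell. All 40 had a log2 fold change below 0, from -1.35 to -0.04, with a median of -0.96. Their mean level in ADPKD was 51.2% of the WT mean at the median and lay between 40% and 60% for 34 of them. Mean WT levels ran from 39.8 to 1328 FPKM, and each rested on at least 1067 reads in every library. The percentage of assigned reads was lower in both ADPKD libraries for each complex. It went from 0.176 and 0.193 to 0.0933 and 0.0978 for complex II and from 0.334 and 0.360 to 0.168 and 0.179 for complex III, in WT and ADPKD libraries in turn. For complex IV it went from 0.585 and 0.572 to 0.308 and 0.329, and for complex V from 1.05 and 1.09 to 0.578 and 0.574. The groups do not overlap in any of the 4 complexes, and these shares are sums with no test of their own.

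**Figure D2:**
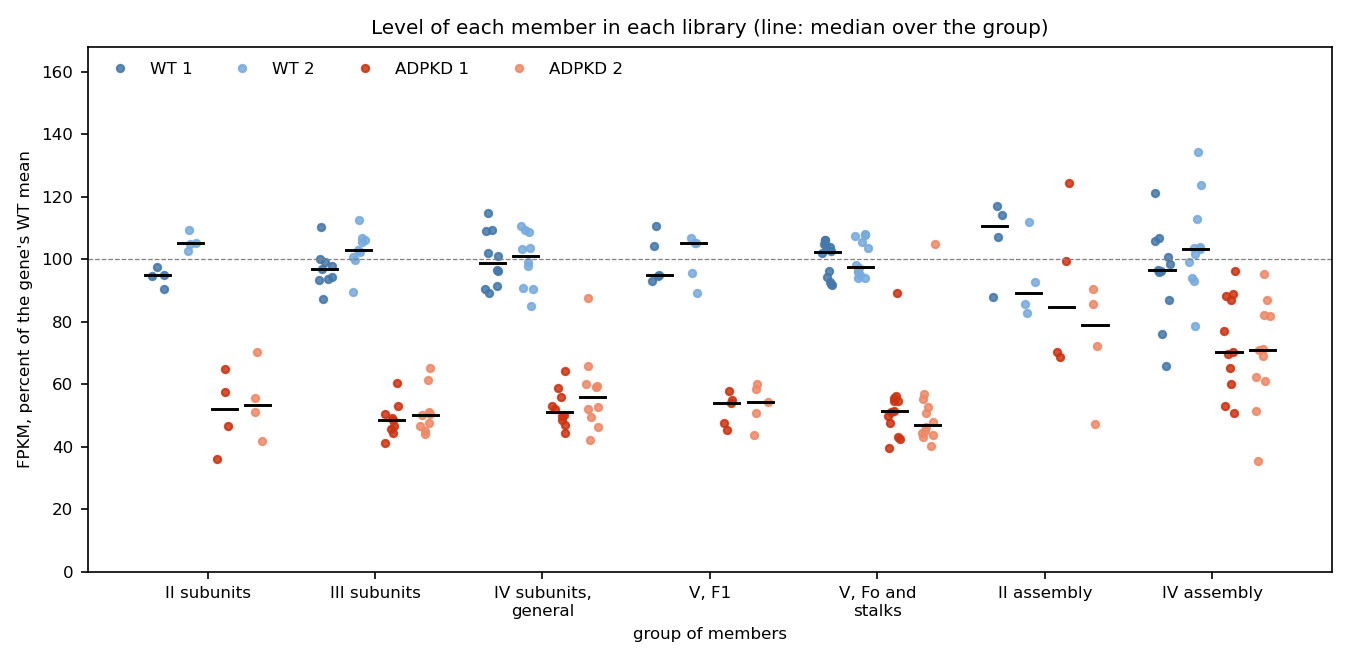
FPKM of each member in each library as a percentage of the gene's WT mean, by group of members, with a line at the median of each library. In the groups of structural subunits nearly all ADPKD points lie below the WT points, and the points of the assembly factors lie closer to their WT mean.

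Of the 4 subunit genes of complex II, 3 fell. Gene positions are given on GRCm38, from the authors' table. Sdhb, the iron-sulfur subunit that carries electrons from the flavin towards ubiquinone (chromosome 4, 140961203 to 140979193), stood at 198 and 219 FPKM in WT and 75.0 and 87.3 FPKM in ADPKD. Both ADPKD libraries were below 50% of either WT library. The log2 fold change of -1.35 was called (SE 0.17, limma adjusted p = 0.0233) and was the most negative among structural subunits of complexes II to V. Sdhc, a membrane anchor that helps form the ubiquinone site (chromosome 1, 171127165 to 171150603), was at 127 and 141 FPKM in WT and 62.3 and 68.4 FPKM in ADPKD (log2 fold change -1.02, SE 0.15, limma adjusted p = 0.0289). Sdha, the flavoprotein that oxidizes succinate (chromosome 13, 74322254 to 74350280), was at 171 and 179.8 FPKM in WT and 101 and 97.6 FPKM in ADPKD (log2 fold change -0.81, SE 0.14, limma adjusted p = 0.0353). For both genes the ADPKD libraries were close to each other and well below WT, and Sdha was not called after quantile normalization (limma adjusted p = 0.0531). Sdhd, the other membrane anchor (chromosome 9, 50596357 to 50603812), was at 165 and 199.6 FPKM in WT and 119 and 128 FPKM in ADPKD. Its groups did not overlap, but the log2 fold change of -0.55 (95% interval -1.01 to -0.10) did not pass the test (limma adjusted p = 0.101).

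Of the 9 nuclear subunit genes of complex III, 8 were called lower, with log2 fold changes of all 9 between -1.21 and -0.71. Uqcr11, a small subunit of the membrane part (chromosome 10, 80402997 to 80406830), was at 524 and 521 FPKM in WT and 215 and 235 FPKM in ADPKD. The WT libraries were nearly equal and both ADPKD libraries lay below 50% of them (log2 fold change -1.21, SE 0.16, limma adjusted p = 0.0252). Uqcrq, a small subunit near the ubiquinone-binding region (chromosome 11, 53427922 to 53430831), was at 208 and 233 FPKM in WT and 98.3 and 105 FPKM in ADPKD (log2 fold change -1.11, SE 0.16, limma adjusted p = 0.0266). Uqcrc2, a core subunit facing the matrix (chromosome 7, 120635176 to 120659524), was at 120.1 and 127 FPKM in WT and 62.3 and 57.6 FPKM in ADPKD (log2 fold change -1.03, SE 0.14, limma adjusted p = 0.0266). Neither gene's groups overlapped, and 19.7% of the exons of Uqcrc2 lie under Pdzd9, where reads may have been lost to counting. The subunits that carry the redox centres, the cytochrome c1 gene Cyc1 and the Rieske iron-sulfur protein gene Uqcrfs1, fell as well, with log2 fold changes of -1.01 and -1.04 (limma adjusted p = 0.0306 and 0.0281). Uqcr10, another small subunit (chromosome 11, 4701973 to 4704342), had the largest adjusted p. It was at 535 and 689.7 FPKM in WT and 324 and 399.7 FPKM in ADPKD. The groups did not overlap, but the libraries of a group lay further apart than for the genes above, and the log2 fold change of -0.75 was not called (SE 0.23, limma adjusted p = 0.0944).

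Cycs, the somatic cytochrome c gene whose protein carries electrons from complex III to complex IV and, once released, starts apoptosis (chromosome 6, 50562563 to 50566538), was at 128 and 129 FPKM in WT and 52.7 and 61.4 FPKM in ADPKD. The ADPKD libraries lay below 50% of both WT libraries (log2 fold change -1.16, SE 0.15, limma adjusted p = 0.0252). The Cycs promoter is shown because it is among the 7 of 49 member promoters that hold the palindrome CGCATGCG, a core of the site of nuclear respiratory factor NRF1. The motif is present in 1.91% of 27025 promoters of the same length and build. All promoters are RefSeq sequences of GRCm38.p6, 250 bases before to 50 bases after the start of the gene, and the capitals mark the motif. The Cycs window is chr6:50566520-50566819 on the minus strand.
Cycs: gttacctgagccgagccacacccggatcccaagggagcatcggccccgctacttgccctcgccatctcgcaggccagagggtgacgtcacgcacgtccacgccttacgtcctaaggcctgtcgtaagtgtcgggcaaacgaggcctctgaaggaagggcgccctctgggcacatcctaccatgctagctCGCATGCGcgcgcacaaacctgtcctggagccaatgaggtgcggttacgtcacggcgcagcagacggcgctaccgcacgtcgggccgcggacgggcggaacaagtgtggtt
A match describes these letters and is not a mapped binding site.

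Of the 10 complex IV subunits used in most tissues, 4 fell (Cox7b, Cox6c, Cox7a2 and Cox6b1) and 6 were not called, although both ADPKD libraries were below both WT libraries for all 10. Cox7b, a small membrane subunit on the X chromosome (X, 106015700 to 106022450), was at 354 and 293 FPKM in WT and 152 and 137 FPKM in ADPKD (log2 fold change -1.15, SE 0.18, limma adjusted p = 0.0306). Cox6c, another small membrane subunit (chromosome 15, 35925886 to 35938246), was at 160.0 and 157 FPKM in WT and 70.3 and 82.4 FPKM in ADPKD (log2 fold change -1.05, SE 0.16, limma adjusted p = 0.0290). Cox6c has a processed copy, Cox6c2, with 231 bases of exon beside 3567 for Cox6c. In WT replicates 1 and 2 and ADPKD replicates 1 and 2, Cox6c2 held 390, 514, 169 and 294 reads. Cox6c held 10496, 10077, 4656 and 5864 reads in the same order. As FPKM divides by length, the copy still took 35.9% to 44.1% of the summed FPKM of the pair. The division of reads between them is uncertain because reads with several alignments were counted. Cox7a2, the form of subunit 7a found in most tissues (chromosome 9, 79755361 to 79759878), was at 354 and 381 FPKM in WT and 184 and 182 FPKM in ADPKD. Its libraries were almost equal within each group (log2 fold change -0.999, SE 0.15, limma adjusted p = 0.0302). Cox6b1, which sits on the outer face near the cytochrome c site, had a log2 fold change of -0.96 (limma adjusted p = 0.0356, 0.0590 with median-of-ratios scaling).

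Cox8a and Cox6a1, the members with the highest mean level over the 4 libraries, were among the uncalled ones. Cox6a1, Cox8a and Cox4i1 had log2 fold changes of -0.82, -0.76 and -0.69 (limma adjusted p = 0.0709, 0.0970 and 0.0654). Cox4i1, the largest nuclear-encoded subunit, was at 690.4 and 662 FPKM in WT and 435 and 402 FPKM in ADPKD, with no overlap. Cox5a, a subunit on the matrix side (chromosome 9, 57521274 to 57532426), had the largest adjusted p among the 10. It was at 67.2 and 80.0 FPKM in WT and 43.3 and 64.4 FPKM in ADPKD, where replicate 2 lay close to the lower WT library. Its log2 fold change was -0.47 (95% interval -1.11 to 0.18, limma adjusted p = 0.252), so a fall to 50% is inside the interval, as is no change.

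Several complex IV subunits have a second gene with restricted use, and the pair Cox6a2 and Cox7a1, known from heart and skeletal muscle, showed the largest falls of all members. Cox6a2 (chromosome 7, 128205435 to 128206387) was at 4.64 and 4.57 FPKM in WT and 0.238 and 0.221 FPKM in ADPKD, from 58, 56, 3 and 3 reads, and 10.3% of its exons lie under Itgad. The 3 reads of each ADPKD library equal the limit that a count of 0 allows. Pooled within each group, its reads were 114 in WT and 6 in ADPKD. On these the level of Cox6a2 per assigned read was 20.1-fold higher in WT (exact 95% counting interval 8.96 to 56.0, without the spread between libraries). With limma its log2 fold change came to -2.19 (SE 0.16, adjusted p = 0.0164), a size which the pseudocount of 1 FPKM holds back: with 0.1 FPKM it was -3.84 and with voom -4.12. Cox7a1 (chromosome 7, 30184144 to 30186078) was at 36.6 and 27.8 FPKM in WT and 9.26 and 7.03 FPKM in ADPKD, from 360, 268, 92 and 75 reads. ADPKD levels were 25.3% of WT on average (log2 fold change -1.86, SE 0.22, limma adjusted p = 0.0226).

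Relative to the general form, Cox7a1 made up 9.38% and 6.81% of the summed FPKM of Cox7a1 and Cox7a2 in WT and 4.78% and 3.72% in ADPKD. Cox6a2 made up 0.325% and 0.384% of the sum with Cox6a1 in WT and 0.0343% and 0.0281% in ADPKD. Neither share overlaps between groups, and an exact two-sided permutation test of 2 against 2 libraries gives p = 0.333 for each, the smallest value it allows. The fixed muscle markers were low in all 4 libraries, with a summed level of 6.26, 3.61, 10.1 and 7.11 FPKM in WT replicates 1 and 2 and ADPKD replicates 1 and 2, and 5 of the 8 (Ckm, Myh4, Tnnt3, Myh6 and Myl2) were at 0 in at least 1 library. Of the 8 muscle markers 2 passed the filter, 0 were called or had an unadjusted p below 0.05, and voom called 0. Acta1, a skeletal actin gene, carried most of the sum (4.14 and 2.098 FPKM in WT, 8.66 and 4.99 FPKM in ADPKD), and without it the other 7 summed to 2.12 and 1.51 FPKM in WT and 1.399 and 2.11 FPKM in ADPKD, with overlap. Myh6, a heart myosin gene, had 22, 8, 2 and 0 reads, lower in both ADPKD libraries, whereas Acta1 was higher in both. The part of muscle RNA in the values of Cox6a2 and Cox7a1 was not tested.

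**Figure D3:**
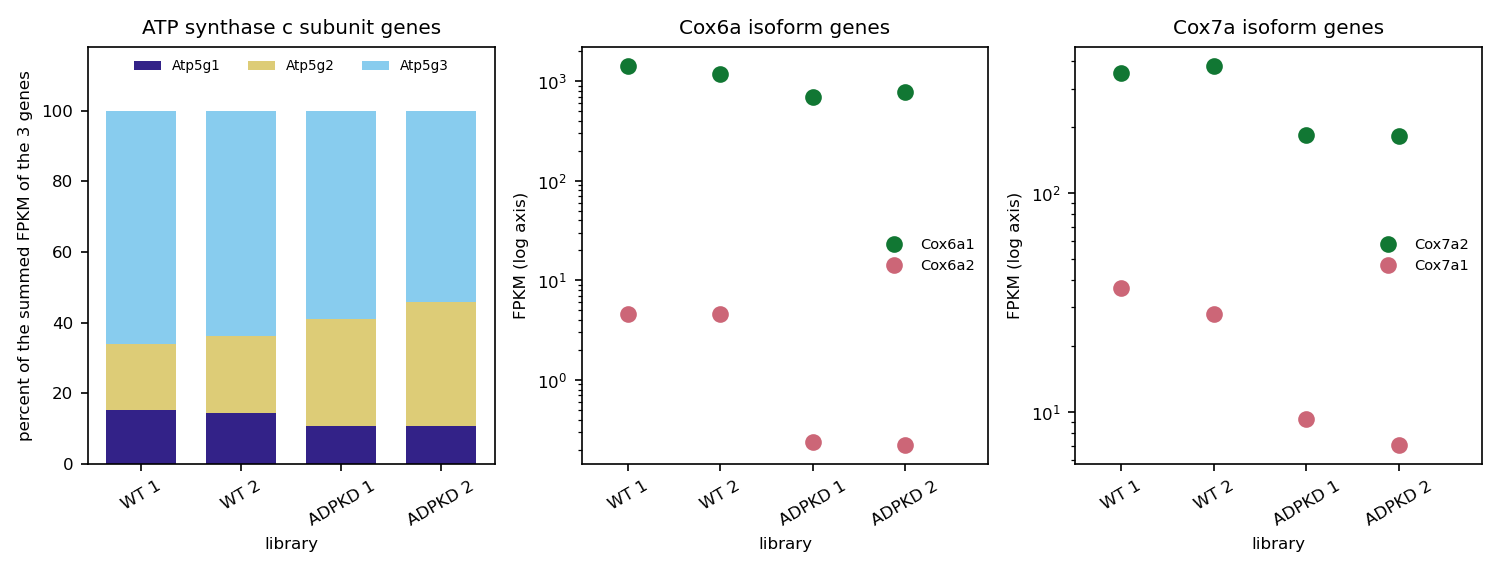
Left, share of each c subunit gene of ATP synthase in the summed FPKM of the 3 genes, by library; middle and right, FPKM of the general and the muscle isoform of subunits 6a and 7a on log axes. The Atp5g2 share is 18.7% and 21.8% in WT and 30.3% and 35.1% in ADPKD, while Cox6a2 and Cox7a1 are lower in both ADPKD libraries than in both WT libraries.

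The other 3 isoforms were not called. Cox4i2, the form of subunit 4 known from lung and low oxygen (chromosome 2), was at 1.17 and 1.34 FPKM in WT and 1.03 and 0.382 FPKM in ADPKD, from 6 to 19 reads a library (log2 fold change -0.43, SE 0.25, limma adjusted p = 0.296). Cox6b2, the testis form of subunit 6b, was at 15.9 and 12.3 FPKM in WT and 12.3 and 18.5 FPKM in ADPKD, with overlapping groups (log2 fold change 0.11, below 0 under median-of-ratios and quantile scaling, SE 0.25, limma adjusted p = 0.799). The 4 male germ cell markers in the table summed to at most 0.325 FPKM in any library, and none passed the filter. Cox8b, known in rodents from heart, muscle and brown fat (chromosome 7, 140898945 to 140900446), was at 1.81 and 0.309 FPKM in WT and 3.74 and 0 FPKM in ADPKD, from 12, 2, 25 and 0 reads. The order of its libraries did not follow the groups: ADPKD replicate 1 was the highest and ADPKD replicate 2, where 0 reads allow up to 0.418 FPKM, the lowest (log2 fold change 0.18, SE 0.85, limma adjusted p = 0.899). The 8 fat markers were also highest in ADPKD replicate 1, with summed levels of 3.27, 1.59, 53.9 and 1.54 FPKM in WT replicates 1 and 2 and ADPKD replicates 1 and 2. Cfd, an adipocyte protease gene, stood at 1.12, 0.0603, 38.6 and 0.0544 FPKM, and Cidea, a lipid droplet protein gene of brown fat, at 0.585, 0, 3.91 and 0.0449 FPKM. Of the fat markers 5 were tested and 0 called, and 0 had an unadjusted p below 0.05 in either direction or a call with voom. The part of fat RNA in the Cox8b values was not tested.

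**Figure D4:**
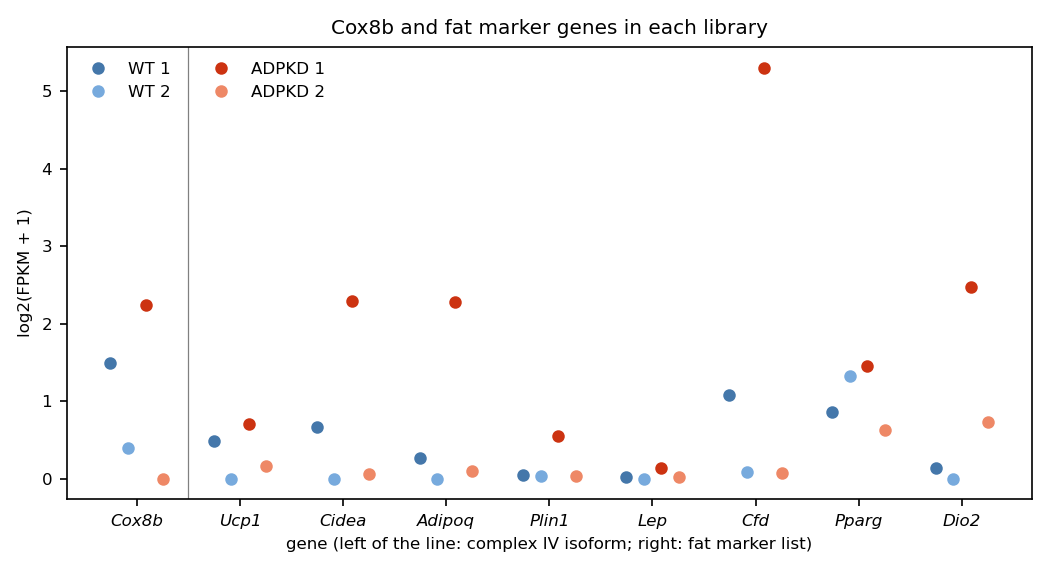
Levels of Cox8b and of the 8 fat marker genes in each library, as log2(FPKM + 1), with 1 point per library. ADPKD replicate 1 is highest for Cox8b (3.74 FPKM) and for all 8 fat markers, and the other ADPKD library is near 0 for most of them.

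Of the 17 subunit genes of ATP synthase, 15 fell and 2 were not called, with a median log2 fold change of -0.92. In the catalytic head, the alpha and beta subunit genes Atp5a1 and Atp5b were at 609 and 676 FPKM and 610.2 and 702 FPKM in WT. In ADPKD they were at 352 and 376 FPKM and 379.7 and 356 FPKM, well below WT in both libraries. Their log2 fold changes of -0.82 and -0.83 passed narrowly (limma adjusted p = 0.0483 and 0.0498), and Atp5d, the delta subunit gene, missed narrowly (-0.90, limma adjusted p = 0.0501). Atp5e, the epsilon subunit of the central stalk (chromosome 2, 174461072 to 174464105), was at 189.7 and 174 FPKM in WT and 82.4 and 79.5 FPKM in ADPKD (log2 fold change -1.16, SE 0.15, limma adjusted p = 0.0243). Atp5k, subunit e of the membrane part, which takes part in pairing the enzyme into dimers (chromosome 5, 108433244 to 108434448), was at 222 and 248 FPKM in WT and 93.3 and 94.8 FPKM in ADPKD. This was the most negative log2 fold change in complex V, at -1.31 (SE 0.15, limma adjusted p = 0.0224). The subunit g gene Atp5l fell (-0.82, limma adjusted p = 0.0331), and so did the stalk genes Atp5o, Atp5f1, Atp5h and Atp5j, with log2 fold changes of -0.96, -0.86, -1.07 and -1.06 (limma adjusted p = 0.0341, 0.0343, 0.0295 and 0.0292). Of the exons of Atp5o, 43.8% lie under other genes. Median-of-ratios scaling ended the calls of Atp5a1 and Atp5b, among others, and quantile normalization those of Atp5b, Atp5o and Atp5f1, among others (limma adjusted p = 0.0601 to 0.0731 for those named). A row named as a pseudogene of subunit g, Atp5l2-ps, held 2155, 2128, 1240 and 1328 reads in WT replicates 1 and 2 and ADPKD replicates 1 and 2, beside 4543, 4788, 2641 and 2831 for Atp5l, so the level of Atp5l is uncertain while both rows moved the same way.

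The c subunit forms the rotor ring in the membrane and has 3 genes, which in mammals encode the same mature protein behind different import sequences. In ADPKD kidney Atp5g1 and Atp5g3 fell, and Atp5g2 was not called. Atp5g1 (chromosome 11, 96068852 to 96075670) was at 93.9 and 88.7 FPKM in WT and 38.9 and 39.5 FPKM in ADPKD, with libraries of a group close together (log2 fold change -1.20, SE 0.14, limma adjusted p = 0.0222). Atp5g3 (chromosome 2, 73908447 to 73911326), the most abundant, was at 403 and 387 FPKM in WT and 215 and 200.3 FPKM in ADPKD (log2 fold change -0.92, SE 0.16, limma adjusted p = 0.0339). Atp5g2 (chromosome 15, 102662864 to 102672352) was at 114 and 133 FPKM in WT and 110.3 and 129 FPKM in ADPKD, with overlapping groups. It was the only structural subunit of the 40 with overlapping groups, and its log2 fold change was -0.04 (95% interval -0.50 to 0.42, limma adjusted p = 0.883). The 95% intervals were -1.56 to -0.84 for Atp5g1 and -1.34 to -0.51 for Atp5g3, which nearly meets that of Atp5g2. The difference between the 3 genes was not tested. The share of Atp5g2 in the summed FPKM of the 3 genes was 18.7% and 21.8% in WT (20.3% ± 2.16, SD, n = 2) and 30.3% and 35.1% in ADPKD (32.7% ± 3.40, SD, n = 2). The shares do not overlap, and the exact permutation test gives p = 0.333, the smallest it allows with n = 2 per group.

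The promoters of the 3 c subunit genes are shown because genes for the same mature protein gave different values. The Atp5g1 window is chr11:96075582-96075881 on the minus strand, the Atp5g2 window chr15:102670998-102671297 on the minus strand, and the Atp5g3 window chr2:73911277-73911576 on the minus strand. The Atp5g2 window lies inside the deposited span of that gene, which starts further upstream. Both strands were searched for CGCATGCG (NRF1), CCGGAAGT (ETS factors such as GABPA), AAGATGGCG (YY1) and TCAAGGTCA (estrogen-related receptors, ERR), and the capitals mark every match.
Atp5g1: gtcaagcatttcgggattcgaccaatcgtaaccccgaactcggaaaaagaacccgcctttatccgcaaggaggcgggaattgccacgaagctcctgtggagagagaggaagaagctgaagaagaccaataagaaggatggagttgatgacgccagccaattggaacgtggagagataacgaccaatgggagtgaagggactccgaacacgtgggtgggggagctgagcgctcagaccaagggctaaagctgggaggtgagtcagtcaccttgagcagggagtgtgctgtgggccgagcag
Atp5g2: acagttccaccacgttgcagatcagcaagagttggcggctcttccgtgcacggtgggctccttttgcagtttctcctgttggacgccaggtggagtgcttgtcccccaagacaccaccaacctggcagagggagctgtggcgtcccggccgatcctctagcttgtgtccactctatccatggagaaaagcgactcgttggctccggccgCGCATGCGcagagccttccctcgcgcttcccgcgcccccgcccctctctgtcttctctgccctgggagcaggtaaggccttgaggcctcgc
Atp5g3: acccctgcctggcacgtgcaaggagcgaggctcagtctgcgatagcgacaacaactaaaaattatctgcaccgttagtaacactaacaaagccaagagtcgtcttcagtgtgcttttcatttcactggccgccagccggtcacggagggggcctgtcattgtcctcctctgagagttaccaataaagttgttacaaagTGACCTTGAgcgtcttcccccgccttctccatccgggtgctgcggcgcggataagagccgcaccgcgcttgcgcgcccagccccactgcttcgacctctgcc
The Atp5g1 window held none of the 4 letter strings, the Atp5g2 window held the NRF1 core and the Atp5g3 window held the ERR site on its reverse strand. Among the 49 members with a promoter entry, the NRF1 core stood in 7 (14.3%, against 1.91% of all promoters): Atp5g2, Atp5k, Atp5l, Cox6a1, Cycs, Uqcr11 and Uqcrc1. Of these 7 genes, 5 fell in ADPKD and 2, Atp5g2 and Cox6a1, were not called. Among all structural subunits 30 of 40 fell, and among all tested members 33 of 63. A link between the motif and the falls was not tested. The ETS string stood in 7 (14.3%, against 4.0%), the YY1 string in 2 (4.08%, against 1.49%), and the ERR string in Atp5g3 and Sdhd (4.08%, against 0.407%).

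None of the 15 tested assembly factors of complexes II and IV was called, 3 were lower at an unadjusted p below 0.05, and voom called 0. Over all genes tested 4.78% were called lower, so few calls would be due in a list of 15 at that share. Their median log2 fold change was -0.39, with 14 of 15 below 0, and the mean ADPKD level was 73.5% of WT at the median. Their mean WT levels were low, from 1.12 to 37.3 FPKM, on 7 to 1765 reads, so that the pseudocount and counting error weigh more on them than on the subunits, and the difference between the 2 groups of genes was not tested. Cox19, a copper-related factor of complex IV, was at 11.2 and 11.0 FPKM in WT and 7.81 and 5.70 FPKM in ADPKD (log2 fold change -0.66, SE 0.19, limma adjusted p = 0.0915). Sdhaf4, which binds the flavin-loaded Sdha before it joins Sdhb, was at 20.7 and 17.9 FPKM in WT and 13.3 and 9.12 FPKM in ADPKD (log2 fold change -0.76, SE 0.22, limma adjusted p = 0.0924). Cox15, an enzyme of heme A synthesis, was at 11.2 and 12.2 FPKM in WT and 8.16 and 8.34 FPKM in ADPKD (log2 fold change -0.46, SE 0.14, limma adjusted p = 0.103). All 3 had both ADPKD libraries below both WT libraries, and Cox19 passed under median-of-ratios and quantile scaling, Sdhaf4 under the former and Cox15 under the latter.

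Surf1, needed early in complex IV assembly, was at 22.9 and 23.6 FPKM in WT and 20.7 and 22.2 FPKM in ADPKD (log2 fold change -0.11, limma adjusted p = 0.603). Sdhaf2, which attaches flavin to Sdha, was at 5.65 and 4.25 FPKM in WT and 6.16 and 4.49 FPKM in ADPKD, with overlapping groups (log2 fold change 0.08, SE 0.23, limma adjusted p = 0.823), a value that was below 0 under median-of-ratios and quantile scaling. Sco2, a copper chaperone gene, was at 0, 0.0443, 0.0860 and 0.120 FPKM, which is 0 to 3 reads a library, and was not tested. Exons of Sco2 and Cox20 lie to more than 90% under other genes (91.8% and 91.1%), where reads may go uncounted, so their levels say little. For Sdhaf1, Cox16, Cox11 and Sdhaf4 this part was 69.6%, 56.8%, 48.3% and 12.7%, so their levels may be too low as well. The rows Cox6c2 and Cox20b are processed pseudogenes by gene type, and neither was called (limma adjusted p = 0.0825 and 0.182).

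Subunits of complex I, the entry point for NADH, were lower as well. Of 36 complex I subunit genes, 32 fell and 0 rose, with a median log2 fold change of -0.97. Of 26 tested genes listed as assembly factors that the names above do not cover, 5 fell (Coa6, Dmac2, Tmem70, Ndufa4 and Uqcc1) and 0 rose, with a median of -0.50. Ndufa4 is in this list, but its protein is known as a structural subunit of complex IV, first placed in complex I, and it was at 309.9 and 401 FPKM in WT and 178 and 167 FPKM in ADPKD. Coa6, a copper-related factor of complex IV, was at 65.4 and 72.4 FPKM in WT and 33.1 and 36.2 FPKM in ADPKD (log2 fold change -0.97, limma adjusted p = 0.0294). Dmac2 was at 30.4 and 28.4 FPKM in WT and 16.1 and 14.1 FPKM in ADPKD (log2 fold change -0.92, limma adjusted p = 0.0322). Of 7 partners of ATP synthase (carriers, porins and a creatine kinase), 1 fell, the ADP/ATP carrier gene Slc25a5, from 651 and 529.6 FPKM to 313 and 325 FPKM (log2 fold change -0.88, limma adjusted p = 0.0499). The mitochondrial creatine kinase gene Ckmt1 was at 34.9 and 33.6 FPKM in WT and 53.5 and 88.5 FPKM in ADPKD, higher in both ADPKD libraries but not called (log2 fold change 0.99, limma adjusted p = 0.0820).

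Among 18 regulators of respiratory genes, 2 fell and 2 rose, against 4.78% lower and 9.43% higher over all genes tested. In a list of this size the counts are near those shares and are not a result about the list. Esrra, an orphan nuclear receptor (ERR alpha) that acts with the coactivator PGC-1 alpha on respiratory genes, was at 35.4 and 38.3 FPKM in WT and 20.3 and 19.0 FPKM in ADPKD (log2 fold change -0.87, SE 0.14, limma adjusted p = 0.0320). Its relative Esrrb was at 9.51 and 14.8 FPKM in WT and 4.35 and 4.03 FPKM in ADPKD (log2 fold change -1.31, SE 0.24, limma adjusted p = 0.0381). The groups do not overlap for either receptor. Myc, a growth-related transcription factor gene, was at 2.58 and 4.44 FPKM in WT and 26.1 and 25.9 FPKM in ADPKD (log2 fold change 2.61, SE 0.24, limma adjusted p = 0.0183), the largest change in the list. Pprc1, a serum-responsive relative of PGC-1 alpha, was at 2.54 and 2.48 FPKM in WT and 6.84 and 5.05 FPKM in ADPKD (log2 fold change 0.97, SE 0.20, limma adjusted p = 0.0444). Ppargc1a, the PGC-1 alpha gene itself, was at 15.9 and 15.3 FPKM in WT and 12.6 and 9.37 FPKM in ADPKD, lower in both libraries but not called (log2 fold change -0.48, limma adjusted p = 0.158), and neither was Nrf1 (log2 fold change 0.31, limma adjusted p = 0.252). Without 1 library, the adjusted p of Esrra was 0.0877 to 0.140, that of Esrrb 0.0547 to 0.138, that of Pprc1 0.0891 to 0.189 and that of Myc 0.0281 to 0.0818, and Myc alone stayed called, without either WT library. Without the filter on low values all 4 missed (0.0667 to 0.104). Pprc1 also missed after quantile normalization (0.0598) and after rescaling outside the pseudogene cluster (0.0533).

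**Figure D5:**
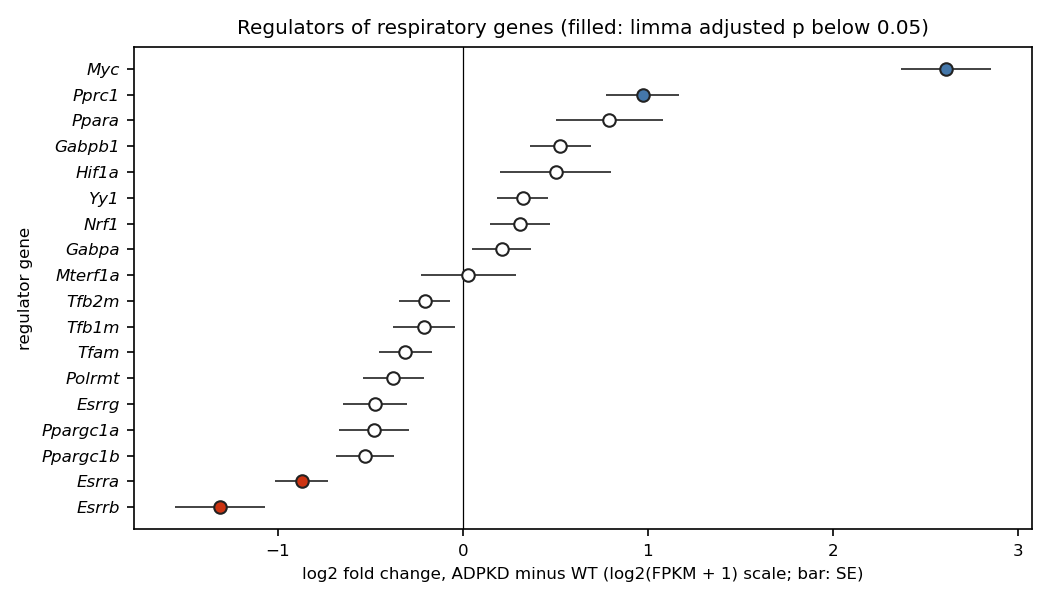
Log2 fold change (ADPKD minus WT, on the log2(FPKM + 1) scale) of the 18 regulators of respiratory genes, with bars for the SE; filled points passed limma at an adjusted p below 0.05. Esrra and Esrrb lie below 0 at -0.87 and -1.31, and Myc and Pprc1 above 0 at 2.61 and 0.97.

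Many markers of the tubule cells that are rich in these complexes were lower in ADPKD kidney as well, 19 of 30 by the test. Of 18 proximal tubule markers 13 fell and 0 rose, with a median log2 fold change of -2.09 and a summed level of 6939 and 6809.8 FPKM in WT against 1981 and 2468 FPKM in ADPKD. Of 7 markers of the thick ascending limb 3 fell, with summed levels of 1096 and 1422 FPKM in WT and 603 and 365 FPKM in ADPKD. For the distal convoluted tubule 3 of 5 fell, with sums of 269 and 181 FPKM in WT and 65.3 and 81.2 FPKM in ADPKD. Values above 0 that were not called were those of Slc5a12 (0.24), Aqp1 (0.06), Cldn16 (0.45) and Trpm6 (0.62) on the log2 scale. All proximal tubule and thick ascending limb markers had reads in every library, as kidney tissue should, and Pvalb of the distal convoluted tubule was at 25.9 and 32.9 FPKM in WT and 0 and 0.144 FPKM in ADPKD. In the other direction, 7 of 10 macrophage markers rose (sums of 58.8 and 99.8 FPKM in WT and 599 and 1405 FPKM in ADPKD), as did 6 of 8 markers of fibroblasts and pericytes (sums of 86.2 and 82.2 FPKM in WT and 428 and 339.8 FPKM in ADPKD). Of 9 collecting duct markers 1 fell (median -0.46), and 1 of 6 endothelial markers fell (median -0.68). None of 5 podocyte markers and none of 5 red blood cell markers was called, with 1 and 2 lower at an unadjusted p below 0.05 and 0 called by voom, and the red cell sums were 2303, 492, 277 and 108 FPKM in the 4 libraries. The part of these shifts in the values of complexes II to V was not tested.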

How the data were processed

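RNA was isolated from whole kidney with TRIzol and selected with oligo dT, per the labels' protocols. The authors deposited FPKM values per gene, and the submitters' processing notes name Bowtie2, DESeq2 and the mm10 build, with no versions or roles. Gene positions and exon lengths are from a deposited featureCounts 1.6.0 table made on Ensembl GRCm38, release 98, per the file headers. It counted reads in exons per gene name, included reads with several alignments, and set no strand, paired-end or overlap option. Paralogs, processed copies and overlapping genes can therefore share or lose reads, and 11 members have more than 10% of their exons under other genes. Of its columns, 16 with values per sample could not be matched by name and were not used here.

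Of 32176 rows, 25 with names turned into dates were left out. FPKM times exon length gave whole reads for 100% of values (tolerance 0.01), so that 1 read on 1 kb of exon equals 0.0501 to 0.0556 FPKM. Groups and replicate numbers follow the sample titles. The test was limma 3.58.1 under R 4.3.3, two-sided with an intensity trend, on log2(FPKM + 1), with 2 residual and 2.55 prior degrees of freedom. Fold changes on this scale understate those of low genes. The script was tested on simulated data. The members, gene lists, marker lists and motifs were chosen with earlier results of these data known, so the lists have no test of their own. Named members are the 3 subunits with the smallest and the 1 with the largest adjusted p in each complex, Cycs, the tissue isoforms, the 3 assembly factors with the smallest adjusted p and members above 0. Other members are named as role partners, chosen after their values were seen. Gene types are those of the GENCODE annotation of GRCm38. Promoters matched 49 of 64 members, 48 by symbol and 1 by synonym.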

Additional observations from a re-analysis of the deposited data

How the results depend on the processing

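The count of 33 members called lower became 0 without the filter on low values, where the smallest adjusted p was 0.0667 and 44 members had an unadjusted p below 0.05. Over all genes 1 of 32151 was called without the filter, so the loss was not particular to the members. Leaving out 1 library at a time, where a lone library is assumed to vary like the other group, ended nearly all calls of members. The calls over all genes dropped as well. Under the other alternatives the member count was 29 to 38. It was 34 with a pseudocount of 0.1 FPKM, 36 with a mean of at least 5 FPKM and 30 with median-of-ratios scaling. With quantile normalization it was 29, outside the chromosome 1 pseudogenes 35, with a robust prior 36 and with voom 38. Over all genes the mean of at least 5 FPKM called 721 of 8515 as lower. The others called 821 to 1102, against 813 of 17001 in the fit above. No member was called higher under any of these. The median log2 fold change moved from -0.88 to -0.92, -1.11 and -0.94 with the mean of at least 5 FPKM, median-of-ratios scaling and the rescaling outside the pseudogenes.

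With the replicate number as a block 31 members were called lower, 28 of them shared with the fit without it. Nothing in the labels says that the numbers pair the samples, and the correlation of same-numbered deviations was 0.19 with 2 pairs. The 5 calls lost under the block were Sdha, Uqcrh, Atp5a1, Atp5b and Atp5c1 (adjusted p = 0.0501 to 0.0599), and Cox5b, Cox7c and Cox6c2 were new. Of the regulators, Esrra, Esrrb and Pprc1 missed under it (0.0502, 0.0552 and 0.0538).

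Members near 0 changed sign, with no call. Atp5g2 was at 0.052 with quantile normalization and between -0.16 and 0.071 without 1 library. Cox6b2 was at -0.11 with median-of-ratios scaling, -0.10 with quantile normalization and -0.17 to 0.38 without 1 library. Cox8b was at -0.51 with a pseudocount of 0.1 FPKM, -0.005 with quantile normalization, -0.79 with voom and -0.94 to 1.31 without 1 library. Sdhaf2 was at -0.11 and -0.18 with median-of-ratios and quantile scaling and -0.11 to 0.28 without 1 library. Apart from the scale and the filter, whose construction changes the genes or the level, the cause was not tested. At this depth Cox8b, Cox4i2 and Sco2 rest on 0 to 25 reads a library, and no difference in them was detectable.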

Other observations

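The inhibitor of ATP synthase, which holds the enzyme still when the proton gradient fails, is listed in the table under its older name Atpif1 and so lies outside the name rule. Atpif1 was at 141 and 140.2 FPKM in WT and 106 and 107 FPKM in ADPKD. The libraries of a group were nearly equal and the groups did not overlap, but the log2 fold change of -0.40 (SE 0.14) did not pass limma (adjusted p = 0.124). Its mean in ADPKD was 75.4% of WT, whereas the median over structural subunits was 51.2%, and the difference between them was not tested.

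Cox7a2l, a relative of subunit 7a that takes part in joining complexes III and IV into supercomplexes, was at 116 and 121 FPKM in WT and 138 and 163 FPKM in ADPKD. Both ADPKD libraries were above both WT libraries, in the direction opposite to its relatives Cox7a1 and Cox7a2, but the log2 fold change of 0.34 did not pass limma (SE 0.16, adjusted p = 0.224).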
